A study of Saccharomyces cerevisiae with 12 samples.

Results

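Phospholipid synthesis in yeast was followed through 9 genes, INO1, CHO1, PSD1, PSD2, CHO2, OPI3, CRD1, OPI1 and CDS1, chosen by their standard names from the 6660 genes with expression values. All 9 were listed in each of the 3 deposited tables, which together hold 12 libraries of messenger RNA from Saccharomyces cerevisiae of the BY4741 background. Wild type (WT) and mmm1Δ, grown in rich glucose medium (YPD) to an OD600 of 0.8 to 1, had 2 libraries each. Grown in the same way, with 1 library each, were AFT1-C291F, VPS13-D716H, the deletions sam37Δ and mdm34Δ, and the double mutants VPS13-D716H sam37Δ and VPS13-D716H mmm1Δ. WT in a medium called clean YPD, without BPS or with 100 µM of this iron chelator for 4 hours, also had 1 library each. Mmm1 and Mdm34 are subunits of ERMES, the tether between the endoplasmic reticulum (ER) and mitochondria. VPS13-D716H is a dominant allele of a lipid transport protein that lets cells grow without ERMES. Sam37 belongs to the sorting machinery of the outer mitochondrial membrane, and AFT1-C291F is an allele of the iron regulator Aft1 that stays active when iron is plentiful. The labels do not say whether replicates came from separate cultures or how many clones of a strain were used, so p-values measure the spread between these libraries, which may be technical.

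Values are FPKM, fragments per kilobase of gene scaled to the library's mapped fragments. The mdm34Δ library shares the first table with replicate 1 of WT and of mmm1Δ, the pair in clean YPD forms the third, and the second takes the other 7. Over all genes the tables had median FPKM of 12.3 to 15.5, 40.2 to 44.3 and 50.4 to 52.2, so values were compared within a table only. MMM1, MDM34 and SAM37 were listed at 0 in every library labelled as lacking them, and the auxotrophic marker genes MET17, LEU2 and URA3 reached at most 1.69. A ratio is the log2 difference in FPKM + 1 between libraries, a scale that understates the change of low genes. A gene was tested in a comparison where its mean FPKM over the libraries compared was at least 5, and a ratio of at least 2-fold was counted as higher or lower. Depth is unknown, so no counting error can be given, and a comparison of single libraries has no replicate check. In bulk samples, fewer cells that express a gene and less RNA per cell cannot be told apart.

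Yeast builds its phospholipids from CDP-diacylglycerol, which Cds1 makes in the ER. Cho1 joins it to serine to give phosphatidylserine. Phosphatidylserine reaches the inner mitochondrial membrane, where Psd1 decarboxylates it to phosphatidylethanolamine, a reaction that Psd2 carries out in the Golgi and endosomes. Phosphatidylethanolamine returns to the ER, where Cho2 adds the first methyl group and Opi3 the later ones to give phosphatidylcholine. The route thus crosses between the organelles that ERMES joins. Crd1 makes cardiolipin in the inner mitochondrial membrane. Ino1 makes the precursor of inositol, and its gene is the classic target of the activators Ino2 and Ino4 and of the repressor Opi1, which leaves the ER membrane for the nucleus when phosphatidic acid is low.

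Ino2 and Ino4 bind a DNA element called UASINO with the core CATGTG. This core was searched on both strands in the 250 bases that lie from 300 to 51 bases before each start codon, read from RefSeq's assembly R64, which is the assembly behind the build sacCer3. It occurred in 390 of 6001 such windows (6.50%) and in those of 7 of the 9 members, INO1, CHO1, PSD1, PSD2, CHO2, OPI3 and CDS1. At least 2 matches occurred in 31 windows (0.517%), among them those of INO1, PSD1, PSD2 and OPI3. CRD1 and OPI1 had no match in this window. The core of Aft1 sites, GCACCC, was found in 211 windows (3.52%) and, of the members, in that of CHO1 alone. No match to the first core overlapped a match to the other in a member. A match describes letters in the window and is no evidence of binding. The 6 windows printed here belong to the regulated reference gene INO1 and to the genes with the largest or most recurrent differences, and they run 5′ to 3′ along the gene with matches to either core in capitals.
INO1 chrX:135984-136233 (minus strand): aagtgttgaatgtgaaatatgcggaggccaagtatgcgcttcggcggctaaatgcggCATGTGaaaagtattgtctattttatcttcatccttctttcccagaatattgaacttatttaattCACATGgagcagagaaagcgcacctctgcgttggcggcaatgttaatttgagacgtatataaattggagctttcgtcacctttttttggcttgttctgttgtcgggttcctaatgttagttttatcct
CHO1 chrV:208525-208774 (minus strand): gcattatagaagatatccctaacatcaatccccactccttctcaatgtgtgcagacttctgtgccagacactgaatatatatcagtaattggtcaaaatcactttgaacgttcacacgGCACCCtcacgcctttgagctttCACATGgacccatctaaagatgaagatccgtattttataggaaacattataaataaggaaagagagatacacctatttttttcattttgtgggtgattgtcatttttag
OPI3 chrX:572986-573235 (minus strand): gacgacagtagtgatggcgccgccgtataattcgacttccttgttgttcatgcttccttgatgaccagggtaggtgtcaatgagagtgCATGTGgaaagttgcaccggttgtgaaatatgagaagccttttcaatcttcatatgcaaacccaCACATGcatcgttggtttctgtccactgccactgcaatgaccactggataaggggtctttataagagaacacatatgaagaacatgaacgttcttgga
CHO2 chrVII:802140-802389 (plus strand): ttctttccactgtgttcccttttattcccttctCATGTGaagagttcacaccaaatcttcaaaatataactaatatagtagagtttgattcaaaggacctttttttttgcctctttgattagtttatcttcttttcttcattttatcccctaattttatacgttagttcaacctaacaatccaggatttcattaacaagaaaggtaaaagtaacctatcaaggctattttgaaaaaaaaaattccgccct
PSD1 chrXIV:317722-317971 (minus strand): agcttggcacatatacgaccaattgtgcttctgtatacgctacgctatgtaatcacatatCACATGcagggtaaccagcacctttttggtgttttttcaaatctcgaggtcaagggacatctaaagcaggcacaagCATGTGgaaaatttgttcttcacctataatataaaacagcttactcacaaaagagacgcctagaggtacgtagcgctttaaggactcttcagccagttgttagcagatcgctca
CRD1 chrIV:202621-202870 (minus strand): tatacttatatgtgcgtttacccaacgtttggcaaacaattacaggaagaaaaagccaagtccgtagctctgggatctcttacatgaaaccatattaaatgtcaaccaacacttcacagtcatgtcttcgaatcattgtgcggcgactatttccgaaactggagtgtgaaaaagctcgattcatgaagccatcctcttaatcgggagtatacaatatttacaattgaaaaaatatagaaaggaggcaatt
The CATGTG matches begin 243 and 178 bases before the start codon in INO1, 212 and 148 in OPI3, 240 and 164 in PSD1, 267 in CHO2 and 159 in CHO1. The GCACCC of CHO1 begins 182 bases before it.

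The members differed widely in level. OPI3 (YJR073C, chromosome X, 572315 to 572935) and CHO1 (YER026C, chromosome V, 207644 to 208474) were the highest 2 of the 9 in 11 of the 12 libraries, all but AFT1-C291F. OPI3 spanned 254 to 676 and 153 to 1098 in the first and second tables, and CHO1 reached 102.5 to 154 and 192 to 673. The mitochondrial genes were lower. PSD1 (YNL169C, chromosome XIV, 316169 to 317671) lay at 11.9 to 27.7 and 46.1 to 98.4 in those tables, and CRD1 (YDL142C, chromosome IV, 201719 to 202570) at 20.4 to 38.7 and 33.6 to 107. The chromosome positions are those of the annotation in R64 and cover the coding sequence.

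**Figure D1:**
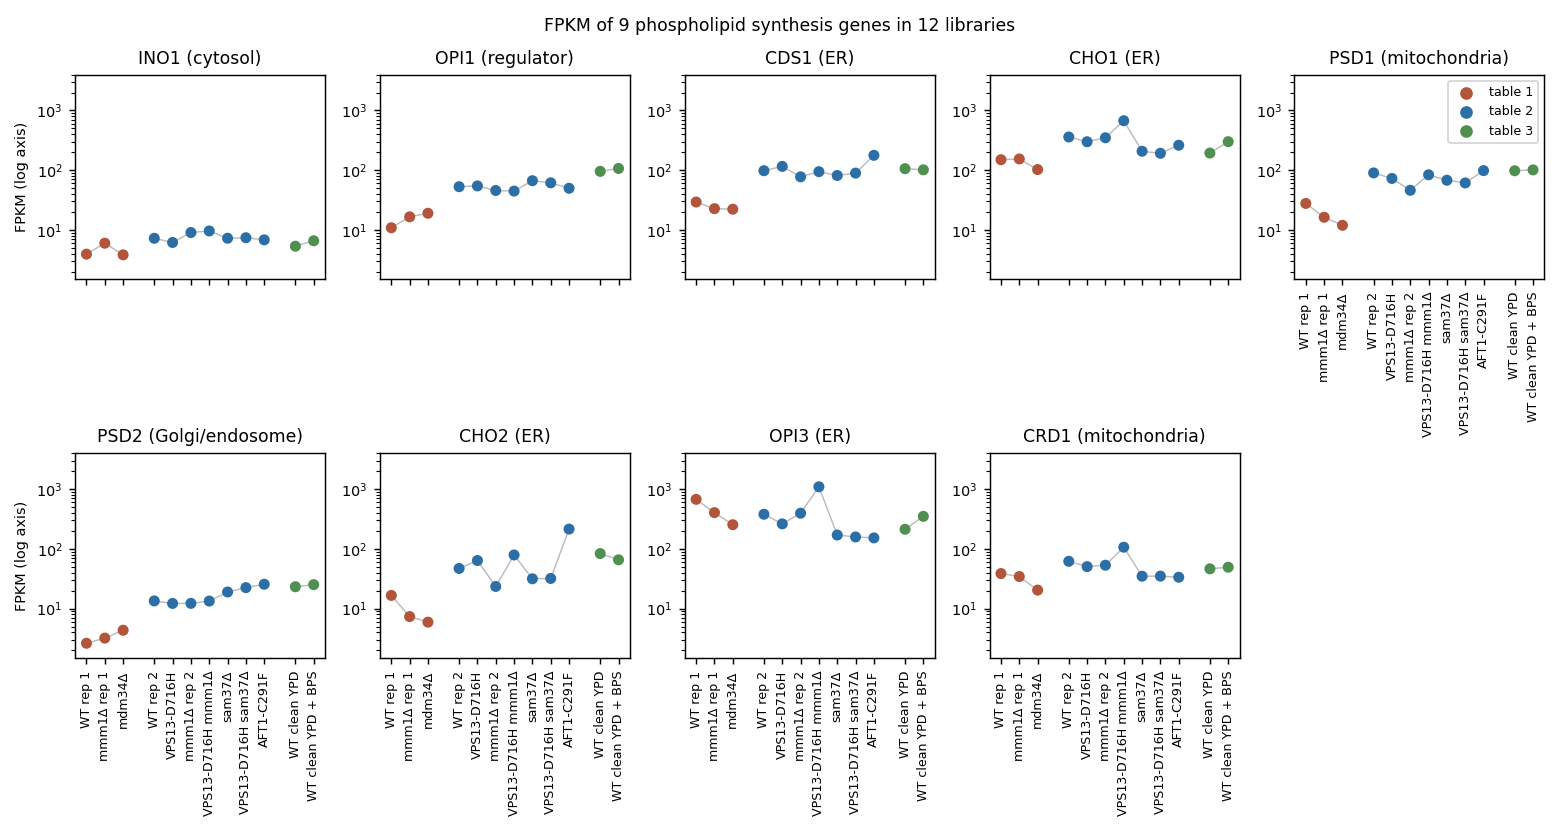
FPKM on a log axis for each of the 9 genes (1 panel a gene, with the place of its product) in the 12 libraries. Points are single libraries coloured by table, and grey lines join libraries of the same table. INO1 stays between 3.82 and 9.61, and CHO2 and OPI3 span the widest range in the second table.

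INO1 (YJL153C, chromosome X, 134332 to 135933) was the lowest member in 10 libraries and lay just above PSD2 in WT replicate 1 and mmm1Δ replicate 1. Its FPKM was 3.93 in WT, 5.99 in mmm1Δ and 3.82 in mdm34Δ of the first table. In the second table WT had 7.23, VPS13-D716H 6.16, AFT1-C291F 6.82, mmm1Δ 9.04, sam37Δ 7.25, and the double mutants 9.61 with mmm1Δ and 7.39 with sam37Δ. In clean YPD it was 5.33 without and 6.58 with BPS. INO1 thus stayed low in every library, and no comparison in which it was tested reached 2-fold. The gene of its repressor, OPI1 (YHL020C, chromosome VIII, 66242 to 67456), lay at 10.9 to 19.0, at 44.7 to 66.7 and at 95.6 and 107 in the 3 tables, and was also within 2-fold in every comparison. Among 6267 other genes, those with a pattern over the 12 libraries most like that of INO1 were YMR252C, FMP45, TKL2, YCR001W and YJL133C-A, with a Pearson likeness of 0.89 to 0.87 on log2(FPKM + 1) centred within each table. These libraries share tables and controls, and the likeness is a description.

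The comparison of mmm1Δ with WT asks how loss of the ER to mitochondria tether goes with the transcripts of a pathway that spans both organelles. CHO2 (YGR157W, chromosome VII, 802440 to 805049), for the first methylation of phosphatidylethanolamine, and PSD1, for its synthesis in mitochondria, were lower in mmm1Δ in both pairs. Neither passed the test over all genes, and none of the 9 members did. Among the ratios of all genes tested, CHO2 lay at the percentiles 14.4 in pair 1 and 7.12 in pair 2. PSD1 lay at 22.4 and 7.47. How many of all genes were lower in both pairs was not counted. In limma with the table as a block, 3.75% of 6029 genes passed at an adjusted p under 0.05, and 2 members, CHO2 and PSD1, had an unadjusted p under 0.05, against 19.0% of all genes. At least 2-fold lower in pair 1 was 1 of 7 members tested, CHO2, and none was higher, where 15.8% of 5038 genes were lower and 8.28% higher. In pair 2 no member reached 2-fold, where 15.3% of 6222 genes did.

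CHO2 FPKM was 16.7 in WT replicate 1 and 7.36 in mmm1Δ replicate 1, and 47.0 in WT replicate 2 and 23.5 in mmm1Δ replicate 2. It was lower in mmm1Δ within each table, by a log2 ratio of -1.08 in pair 1 and -0.97 in pair 2. The mean was -1.02 ± 0.30 (moderated SE, 2 pairs; limma adjusted p 0.111). PSD1 FPKM was 27.7 in WT and 16.3 in mmm1Δ in the first table, and 89.99 and 46.1 in the second. Its log2 ratios were -0.73 and -0.95, with a mean of -0.84 ± 0.31 (moderated SE, 2 pairs; limma adjusted p 0.2001). PSD1 was thus lower in mmm1Δ both times, by less than 2-fold. The listed locus of PSD1 also takes in APC1, YNL170W and YNL171C. YNL170W moved in the same direction, from 19.5 to 9.31 and from 37.9 to 13.1, and how much of either value comes from shared reads was not tested.

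The other members showed no such repeat or only small ratios. OPI3, which completes phosphatidylcholine, had ratios of -0.74 and 0.06 (limma adjusted p 0.746), and its mean of -0.34 turned to 0.24 once a lowess trend of the ratio on abundance was removed in each pair. Ribosomal protein genes took 54.9% of the length-weighted FPKM in WT replicate 1 and 48.9% in WT replicate 2, against 40.8% and 35.3% in mmm1Δ, and the part of this difference in the results was not tested. The remaining means were small, at -0.00058 for CHO1, -0.19 for CRD1, -0.35 for CDS1 (YBR029C, chromosome II, 296369 to 297742), 0.04 for PSD2 (YGR170W, chromosome VII, 837142 to 840558), 0.18 for OPI1 and 0.40 for INO1, with limma adjusted p between 0.574 and 0.999. The signs of CHO1 and PSD2 changed with the trend removed, to 0.37 and -0.16. PSD2 and INO1 had a mean FPKM under 5 in pair 1 and passed only through the filter over all 4 libraries.

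**Figure D2:**
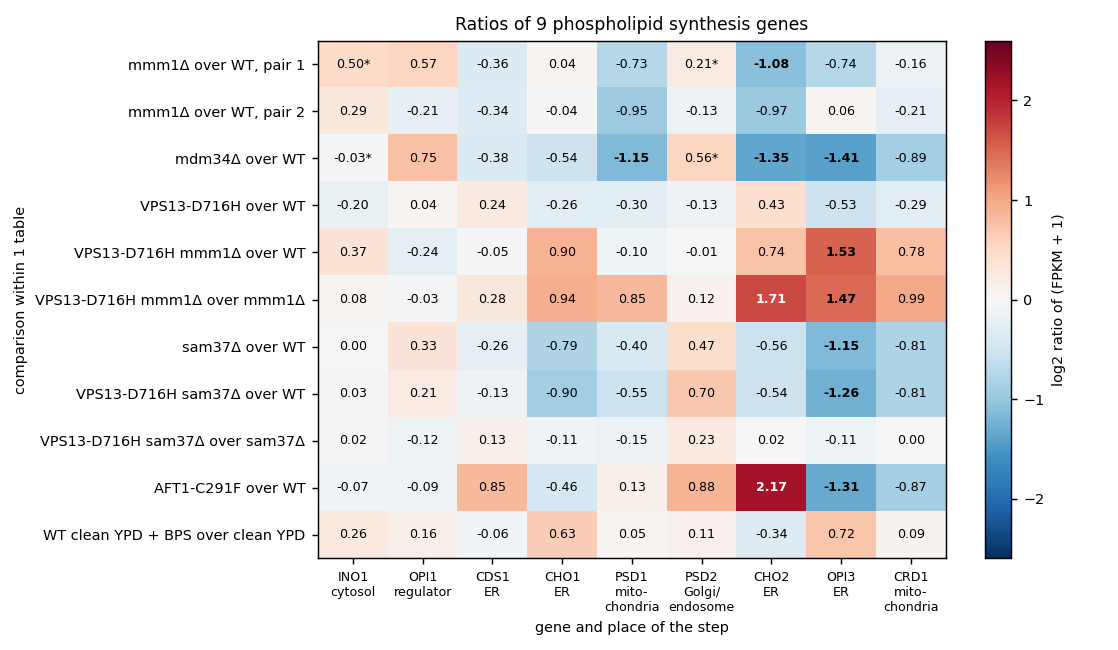
Log2 ratio of (FPKM + 1) for the 9 genes (columns, with the place of the step) in 11 comparisons within a table (rows). Red is higher and blue lower in the first-named library, bold marks at least 2-fold and an asterisk a mean FPKM under 5. CHO2 and PSD1 are blue in both mmm1Δ pairs and in mdm34Δ, and OPI3 and CHO2 are red in VPS13-D716H mmm1Δ over mmm1Δ.

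A ratio between members uses a single library, so the scaling between libraries enters it only through the added 1. Differences between libraries that go with gene length or abundance do not cancel in it. In pair 1, genes under 1000 nt had a median ratio of -0.25 and those over 2000 nt of 0.32. In pair 2 these were -0.04 and 0.006. CHO1 is 831, PSD1 1503 and PSD2 3417 nt long. CHO1 over PSD1, the maker of phosphatidylserine in the ER over its user in mitochondria, had a log2 value of 2.39 in WT and 3.17 in mmm1Δ of the first table, and of 1.99 and 2.90 in the second. WT was at 2.19 ± 0.29 (SD, n = 2) and mmm1Δ at 3.03 ± 0.19 (SD, n = 2), and the groups did not overlap. The exact two-sided permutation p was 0.333, the smallest that 2 against 2 libraries can give, so no call could be made. This permutation does not keep the libraries of a table together, and the SDs include the difference between tables. PSD1 over PSD2, the mitochondrial over the Golgi and endosome decarboxylase, was 2.98 in WT and 2.04 in mmm1Δ of the first table. In the second these were 2.65 and 1.83, again without overlap (exact permutation p 0.333). Low values were not limited to mmm1Δ. WT in clean YPD had 2.03 without and 1.96 with BPS. AFT1-C291F had 1.90, sam37Δ 1.78, its double mutant with VPS13-D716H 1.41 and mdm34Δ 1.28. Higher were VPS13-D716H alone at 2.48 and its double mutant with mmm1Δ at 2.56. How many other pairs of genes lack overlap was not counted. The mean of the 4 ER steps CDS1, CHO1, CHO2 and OPI3 minus the mean of the mitochondrial steps PSD1 and CRD1 had no common direction, with mmm1Δ minus WT at -0.085 and 0.26 in the pairs. Over all 12 libraries this contrast ranged from 0.99 in sam37Δ to 1.76 in AFT1-C291F, and CHO2 over OPI3, both ER steps, ranged from -5.60 to 0.49. A mean over genes varies less than a single ratio, and these ranges run across tables.

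**Figure D3:**
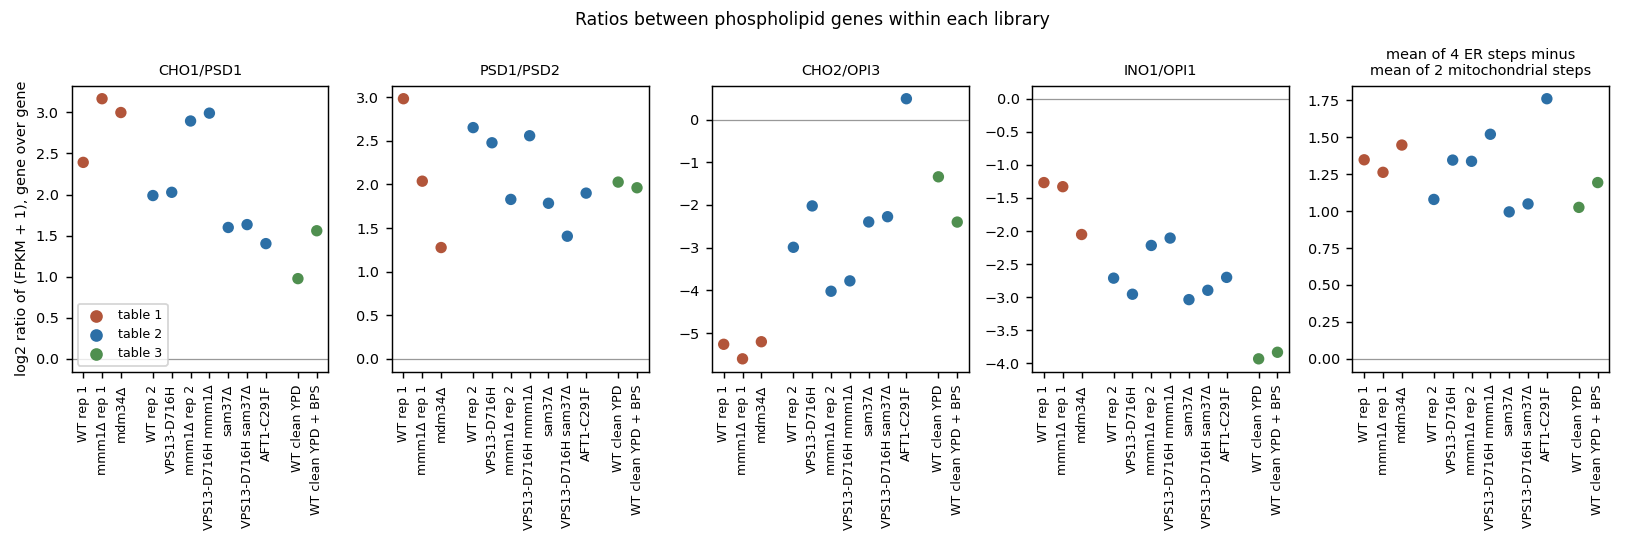
Log2 ratio of (FPKM + 1) of 1 gene over another in the same library for 4 pairs of genes, and the mean of 4 ER steps minus the mean of 2 mitochondrial steps, in 12 libraries coloured by table. Each panel has its own vertical axis. CHO1 over PSD1 is highest in the 4 libraries that lack Mmm1 or Mdm34, at 2.90 to 3.17, and CHO2 over OPI3 is above 0 in AFT1-C291F alone. No trend with abundance or length was removed from these values.

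Among 46 other phospholipid genes, 44 were tested in mmm1Δ and none passed, with 8 at an unadjusted p under 0.05, a share close to the 19.0% of all genes, and a lowest limma adjusted p of 0.069. That lowest value belonged to HNM1, the choline transporter, at a mean of -1.46 ± 0.36 (moderated SE). The inositol transporter ITR1 followed at -1.25 ± 0.37 (SE; limma adjusted p 0.114), SCS2, whose product holds Opi1 at the ER, at -1.56 ± 0.49 (SE; limma adjusted p 0.135), and EPT1, of the pathway that uses free choline and ethanolamine, at -1.07 ± 0.36 (SE; limma adjusted p 0.162). In pair 2 alone the extremes were ITR1 at -1.28 and the fatty acid synthase gene FAS2 at -1.11, and MDM35, of lipid transfer between the mitochondrial membranes, at 1.32 and the phospholipase gene PLB1 at 1.19. In pair 1 SCS2 at -2.16 and HNM1 at -1.84 were lowest and none was 2-fold higher. SCS2 FPKM was 2133 in WT replicate 1. These ratios have no abundance trend removed, and its part in them was not tested.

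The mdm34Δ library shares WT replicate 1 with the first mmm1Δ pair, so its ratios are no independent repeat. Of the 7 members tested, 3 were at least 2-fold lower and none was higher, where 23.4% of 5136 genes were lower and 11.8% higher. CHO2 FPKM was 5.94 against 16.7 in WT, a log2 ratio of -1.35, and PSD1 was 11.9 against 27.7, a ratio of -1.15. CRD1, for cardiolipin synthase, was 20.4 against 38.7 in WT and 34.5 in mmm1Δ, a ratio to WT of -0.89. OPI3 was 254 against 676, a ratio of -1.41. With the abundance trend removed OPI3 was at -0.08, whereas CHO2 was at -1.70, PSD1 at -1.42 and CRD1 at -0.97, and the count past 2-fold was 2. CHO1 was at -0.54 and turned to 0.25. Genes under 1000 nt had a median of -0.43 in mdm34Δ and those over 2000 nt of 0.49. With the length trend also removed, OPI3 was at -0.05, CHO1 at 0.26, CHO2 at -1.84, PSD1 at -1.48 and CRD1 at -0.96. Of 40 other phospholipid genes tested 3 were higher and 10 lower, with no trend removed. SCS2 at -2.85 and HNM1 at -2.59 were lowest. The inositol phosphatase gene INM1 at 1.27 and PCT1, for the choline branch of the salvage pathway, at 1.10 were highest.

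VPS13-D716H by itself moved no member by 2-fold, where 4.30% of 6160 genes passed that mark. OPI3 FPKM was 263 against 381 in WT replicate 2, a log2 ratio of -0.53, the lowest of the 9. CHO2 was 63.9 against 47.0, a ratio of 0.43, the highest. CHO1, PSD1 and CRD1 lay at -0.26, -0.30 and -0.29. None of 46 other phospholipid genes reached 2-fold.

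In cells lacking Mmm1, CHO2 and OPI3 were at least 2-fold higher with the same allele. Of the 9 members, 8 had ratios above 0 in VPS13-D716H mmm1Δ over mmm1Δ replicate 2, from 0.08 for INO1 to 1.71 for CHO2, with a median log2 ratio over the 9 of 0.85 beside 0.00 over all 6245 genes tested. CHO2 and OPI3 were the 2 of 9 members past 2-fold, where 21.5% of all genes were past 2-fold and 9.43% were higher. CHO2 FPKM was 79.2 in the double mutant, 23.5 in mmm1Δ and 47.0 in WT. It was therefore higher than mmm1Δ by a log2 ratio of 1.71 and higher than WT by 0.74. PSD1 was 83.8 in the double mutant, 46.1 in mmm1Δ and 89.99 in WT, so it lay 0.85 above mmm1Δ and within 0.10 of WT. In the double mutant CHO2 thus lay above WT and PSD1 slightly below it. YNL170W, at the listed locus of PSD1, was 59.5 in the double mutant, 13.1 in mmm1Δ and 37.9 in WT. How much of the PSD1 values comes from shared reads was not tested.

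OPI3, CHO1 and CRD1 went past WT. OPI3 FPKM was 1098 in VPS13-D716H mmm1Δ, against 397 in mmm1Δ, 263 in VPS13-D716H and 381 in WT. Its log2 ratio was 1.53 over WT and 1.47 over mmm1Δ. CHO1 was 673 against 349, 300 and 360 in the same order, with ratios of 0.90 and 0.94. CRD1 was 107 against 53.4, 50.5 and 62.0, with ratios of 0.78 and 0.99. In each of the 3 genes the double mutant was the highest of the 7 libraries of its table, and the second was mmm1Δ for OPI3 and WT for CHO1 and CRD1. Over WT, 1 member was 2-fold higher and none lower, where 11.7% of 6216 genes were higher and 11.6% lower. CRD1 has no CATGTG in the window searched, whereas OPI3 and CHO1 do. INO1, with 2 matches, was at 0.37 over WT and 0.08 over mmm1Δ. Of the other members with a match, CHO2 was at 0.74 over WT, PSD1 at -0.10, PSD2 at -0.01 and CDS1 at -0.05. OPI1, without a match, was at -0.24. Whether a match goes with the ratio was not tested. Of 46 other phospholipid genes 7 were higher and 2 lower over mmm1Δ. CKI1, the choline kinase gene, at 1.31 and GPT2, for the first acyl transfer to glycerol phosphate, at 1.25 were highest, and INM1 at -2.53 and FAA4, which activates fatty acids, at -1.48 were lowest. Over WT, 4 of 46 were higher and 1 lower, with GPT2 at 1.702 and PLB1 at 1.43 highest and INM1 at -1.71 the only lower gene.

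**Figure D4:**
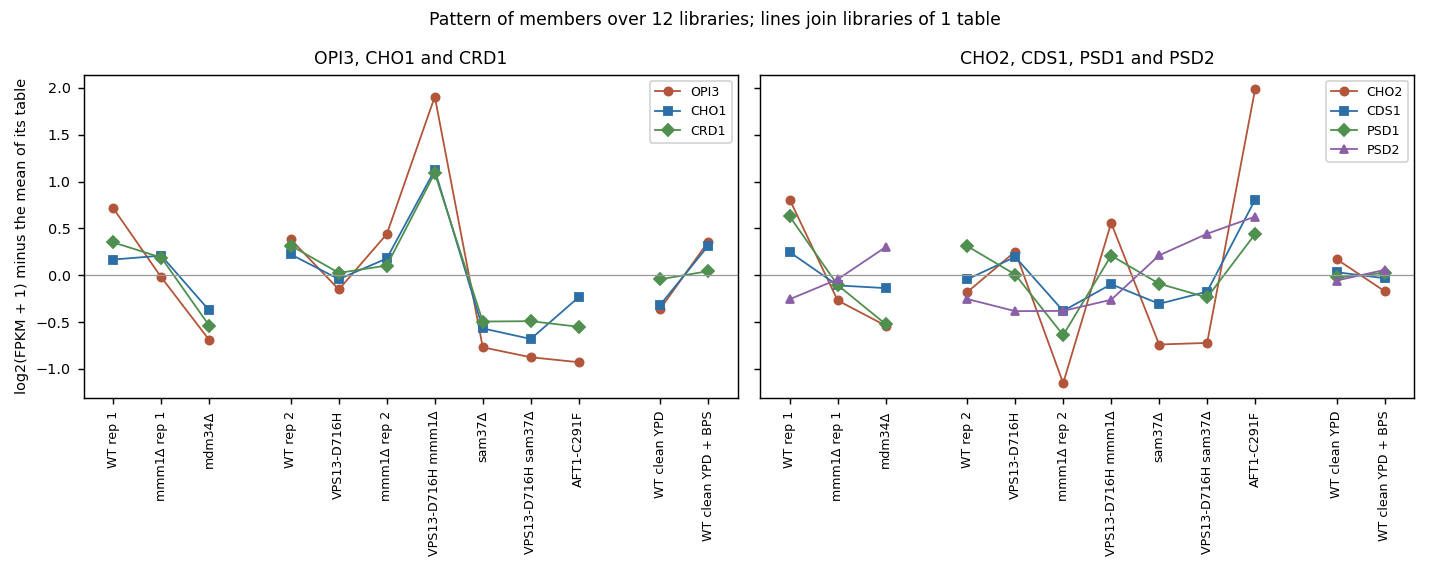
Log2(FPKM + 1) minus the mean of its table for 7 members over 12 libraries. Lines join libraries of 1 table. On the left, OPI3, CHO1 and CRD1 peak in VPS13-D716H mmm1Δ and lie below 0 in sam37Δ, and on the right CHO2 is at the bottom of the second table in mmm1Δ and at its top in AFT1-C291F.

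Loss of Sam37 went with lower values of the same 3 genes, OPI3, CHO1 and CRD1, before any trend was removed. At 621, 831 and 852 nt these are also the only members under 1000 nt. In sam37Δ and in VPS13-D716H sam37Δ, 6 of 9 members had ratios to WT below 0. Over all genes tested the median ratios were 0.01 and 0.003, and the share below 0 was not counted. OPI3 FPKM was 171 in sam37Δ and 159 in VPS13-D716H sam37Δ, against 381 in WT, with log2 ratios of -1.15 and -1.26. CHO1 was 208 and 192 against 360, ratios of -0.79 and -0.90. CRD1 was 34.9 and 35.0 against 62.0, a ratio of -0.81 in both. CHO2 was at -0.56 and -0.54, PSD1 at -0.40 and -0.55 and CDS1 at -0.26 and -0.13. Both comparisons share the WT library. In each, 1 of 9 members was 2-fold lower and none higher. Of all genes, 10.7% of 6198 were lower and 6.32% higher in sam37Δ, and 10.9% of 6209 lower and 6.81% higher in VPS13-D716H sam37Δ. Genes under 1000 nt as a class had a median of -0.26 in sam37Δ and those over 2000 nt of 0.37. With abundance and length trends removed, OPI3 was at -0.72 and -0.81 and no member was past 2-fold. In sam37Δ CHO2 was then the lowest member at -0.84, with CRD1 at -0.74, PSD1 at -0.35 and CHO1 at -0.34. PSD2, the longest member, was at 0.47 and 0.70, and at -0.05 and 0.15 after that removal. Of the other phospholipid genes, AYR1, of the acyl dihydroxyacetone phosphate route to phosphatidic acid, was the only one 2-fold lower in both mutants, at -1.49 and -1.57. PLB1 was higher in sam37Δ, at 1.07. INM1 and FAA4 were higher in the double mutant, at 1.27 and 1.08.

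Without Sam37, no member differed by 2-fold between VPS13 alleles. In VPS13-D716H sam37Δ none was 2-fold from sam37Δ, where 2.20% of 6189 genes were, and the 9 ratios ranged from -0.15 for PSD1 to 0.23 for PSD2. The effect of the allele was thus at -0.53 for OPI3 in WT, -0.11 in sam37Δ and 1.47 in mmm1Δ. For CHO1 these values were -0.26, -0.11 and 0.94, for CRD1 -0.29, 0.00 and 0.99, for PSD1 -0.30, -0.15 and 0.85, and for CHO2 0.43, 0.02 and 1.71. With 1 library for each genotype the differences between backgrounds could not be tested.

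AFT1-C291F gave the largest CHO2 value of the second table. CHO2 FPKM was 215 against 47.0 in WT replicate 2, a log2 ratio of 2.17. CHO2 was 1 of 9 members at least 2-fold higher, where 15.6% of 6174 genes were. CDS1 was 178 against 98.0, a ratio of 0.85, and PSD2 25.6 against 13.5, a ratio of 0.88. OPI3 was 153 against 381, a ratio of -1.31, so that 1 of 9 members was 2-fold lower, where 14.2% of genes were. CHO2 FPKM was below that of OPI3 in the other 11 libraries and above it here. The log2 ratio of CHO2 over OPI3 was 0.49 in this library and between -5.60 and -1.34 in the others. WT replicates 1 and 2 were at -5.26 and -2.99. Whether CHO2 stays above OPI3 with abundance and length trends removed was not tested. CRD1 was at -0.87, CHO1 at -0.46 and PSD1 at 0.13, and CHO1 turned to 0.21 with abundance and length trends removed.

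Gene length moved with the ratio in this library. Genes over 2000 nt had a median of 1.01, those of 1000 to 2000 nt of 0.04 and those under 1000 nt of -0.60. CHO2 is 2610 nt and OPI3 621 nt long. With abundance and length trends removed CHO2 was at 1.498, CDS1 at 0.98, OPI3 at -0.54 and PSD2 at -0.48, and CHO2 was the only member past 2-fold. Of 46 other phospholipid genes 9 were higher and 3 lower, led by SPO14, a phospholipase D, at 1.87 and the fatty acid synthase gene FAS1 at 1.702. The activator gene INO4 was at -1.43, with FPKM 34.0 against 93.5, and CLD1, a cardiolipin lipase, at -1.27. The ratios of these other genes have no trend removed, and the part of gene length in them was not tested.

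**Figure D5:**
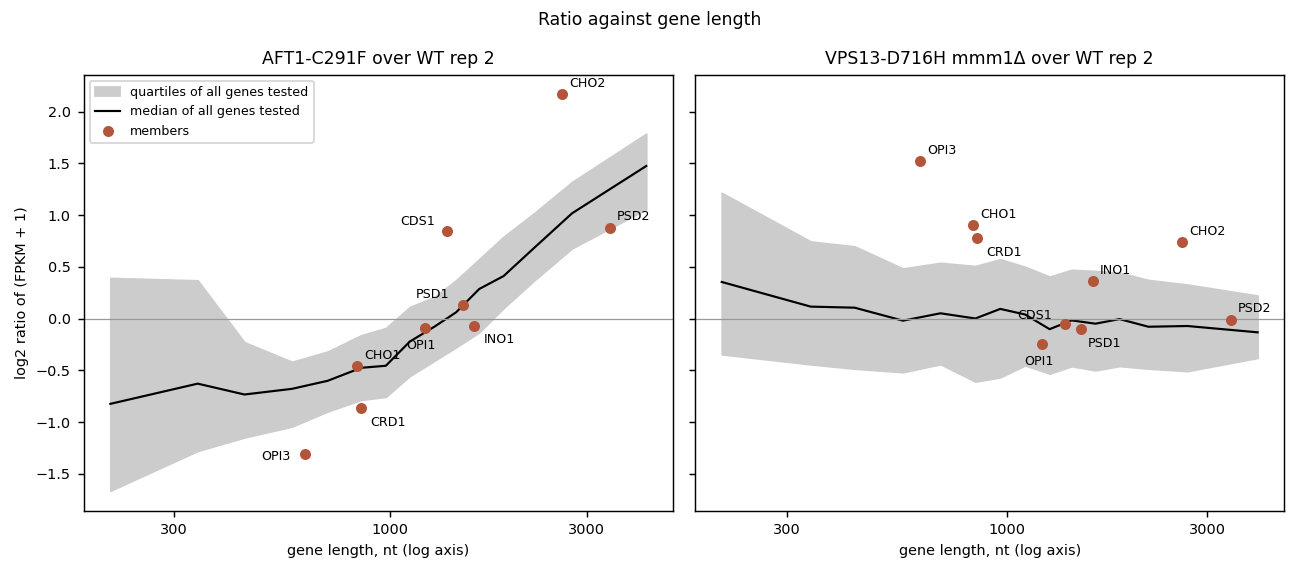
Log2 ratio of (FPKM + 1) against gene length on a log axis for AFT1-C291F and for VPS13-D716H mmm1Δ, each over WT replicate 2. The line is the median and the grey band the quartiles of all genes tested in 15 bins of length, and points are the 9 members. In AFT1-C291F the median rises with length and CHO2, at 2.17, and CDS1 lie above the band, whereas in VPS13-D716H mmm1Δ the median stays near 0 and OPI3, CHO1, CRD1 and CHO2 lie above the band.

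With iron chelation, the genes of phosphatidylserine synthesis and of the last methylations had the highest ratios of the 9, each under 2-fold. With BPS, OPI3 FPKM was 351 against 213 without it, a log2 ratio of 0.72, and CHO1 was 300 against 193, a ratio of 0.63. These lay at the percentiles 94.8 and 93.7 of 6262 genes. CHO2 was 65.7 against 83.6, a ratio of -0.34. OPI3 and CHO1 were thus higher while CHO2 was lower. The mitochondrial genes were near 0, with PSD1 at 0.05 and CRD1 at 0.09, and no member reached 2-fold, where 7.09% of genes did. Among 45 other phospholipid genes tested, the phospholipase gene PLB2 was higher by 1.48. UPS1, which carries phosphatidic acid between the mitochondrial membranes, was at -1.08 and HNM1 at -1.01. BPS and AFT1-C291F thus had CHO2 ratios of -0.34 and 2.17 and OPI3 ratios of 0.72 and -1.31, in separate tables and with separate controls.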

How the data were processed

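Sequenced messenger RNA of 12 libraries was used. The 3 deposited tables give FPKM of 6660 genes, per the file headers. The submitters' processing notes name TopHat2 2.0.8, Cuffdiff 2.0.2 and the build sacCer3, with no roles or settings. Kits were TruSeq or KAPA stranded, per the labels' protocols, with no assignment to libraries, and strand was not used here. The label of WT replicate 2 names the table of the clean YPD pair, whereas the column that carries its name is in the second table. That column was used, and it is the control of every second-table comparison with WT. Of 5986 genes matched to RefSeq R64, 5365 had the same ends in the tables.

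From these values log2(FPKM + 1) ratios were computed within a table (Python 3.11.15, pandas 2.3.3). mmm1Δ was compared with WT in limma 3.58.1 (R 4.3.3), with the table, which is the replicate number, as a block, a trend, and Benjamini-Hochberg adjustment over 6029 genes. The fit had 1 residual degree of freedom and was tested on simulated data. With each library centred on its median, deviations of same-numbered WT and mmm1Δ libraries had a correlation of 0.62 over genes. Other groups had 1 library and no test. Alternatives were pseudocounts of 0.1 and 5, no filter, median centring, removal of an abundance trend (lowess, fraction 0.3), no block, each pair alone and, added after seeing the data, removal of a length trend. Of 10 genes chosen, 1 is not reported here and entered no count or mean. Members and lists were chosen with earlier results of these data known. Of the other lists, the 2 highest and 2 lowest genes past 2-fold were named, and for the limma fit the 4 with the lowest p, chosen after their values were seen. Ratios of genes in these lists are given without removal of any trend.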

Additional observations from a re-analysis of the deposited data

Results flagged for a closer look

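The effect of VPS13-D716H on 4 members had opposite directions in WT and in mmm1Δ and differed by at least 2-fold between them. The log2 ratio in mmm1Δ minus that in WT was 2.002 for OPI3, 1.28 for CRD1, 1.21 for CHO1 and 1.15 for PSD1. Against sam37Δ in place of WT, OPI3 differed by 1.57 and CHO1 by 1.06, again with opposite directions. How many of all genes meet this rule was not counted. In VPS13-D716H mmm1Δ over mmm1Δ, 21.5% of 6245 genes were past 2-fold, and in VPS13-D716H over WT 4.30% of 6160. Each value rests on 1 library for each genotype, and the difference was not tested.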

How the results depend on the processing

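Under each alternative run, no member passed the limma test in mmm1Δ. The count of members called without the replicate block, on median-centred values, was 0, as in the paired fit, and over all genes 0 rose and 0 fell without the block against 165 and 61 with it. CHO2 had a limma adjusted p of 0.059 to 0.936 and PSD1 of 0.142 to 1.000 over the alternatives, with the same direction in each. Signs of mean mmm1Δ ratios turned with the abundance trend removed, to 0.37 for CHO1, -0.16 for PSD2 and, from -0.34, 0.24 for OPI3, with the length trend also removed, to 0.38, -0.15 and 0.22, and without the block to -0.12 for PSD2. Pairs taken alone ranged from -0.062 to 0.49 for INO1 over OPI1 and from -0.085 to 0.26 for ER minus mitochondrial steps. A count of calls from 1 pair was not possible. Members past 2-fold in mdm34Δ were 1 in place of 3 with a pseudocount of 5. In sam37Δ and in VPS13-D716H sam37Δ they were 0 in place of 1 with either trend removed, and in AFT1-C291F 1 in place of 2 with both removed, but 3 with the abundance trend alone removed, where CDS1 reached 1.01. CRD1 in VPS13-D716H mmm1Δ over mmm1Δ reached 1.0004 with a pseudocount of 0.1, and CHO2 in mmm1Δ pair 2 reached -1.03 with the abundance trend removed. CHO2 in pair 1, at -1.08, was at -0.81 with a pseudocount of 5 and at -1.35 and -1.42 with the trends removed. All-gene counts in mmm1Δ were 226 as reported, 372 with a pseudocount of 0.1, 140 with 5, 23 with no filter, 86 without the abundance trend and 134 without both trends. Of the 10 ratios past 2-fold outside the mmm1Δ pairs, 7 stayed so without the abundance trend and 6 without both trends, and none changed sign under any alternative. The cause was not tested. Depth is unknown and limits INO1 and, in the first table, PSD2 most.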
